A study of Homo sapiens with 6 samples.

Results

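The genes described here are 33 members of glucose metabolism, read from the RNA-sequencing table of H1975 cells by gene symbol. They were 33 of 27216 rows, and every symbol was found. They fall into 3 pathways that are reported apart, with 20 genes of glycolysis, 6 of the pentose phosphate pathway and 7 of glycogen synthesis and breakdown. H1975 is a human non-small cell lung cancer line with a mutated EGFR, and osimertinib (Osi) is an EGFR tyrosine kinase inhibitor (EGFR-TKI). The 3 parental samples are labelled as 0 hours of Osi and their columns are named for DMSO, so whether the cells were kept in DMSO is not stated. The 3 adapted samples had 72 h of Osi at a labelled dose of 1000 nM, and the parental labels carry the same dose with 0 hours. No sample is labelled as 72 h without Osi, so the drug and the time in culture cannot be told apart. The labels give the genotype of both groups as WT, name no other treatment, and state that dead cells were rinsed off before RNA was taken from those that remained, so the adapted samples hold the surviving cells of 1 line. The labels also describe digestion with RNase R, which removes linear RNA, while the methods of the study name total RNA only.

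Glycolysis splits glucose into pyruvate in the cytosol, with a net yield of ATP and NADH. The pentose phosphate pathway draws glucose 6-phosphate off to make NADPH in its oxidative branch and ribose 5-phosphate for nucleotides, and its non-oxidative branch returns carbon to glycolysis. Glycogen is the branched glucose store, built from UDP-glucose and cleaved to glucose 1-phosphate. Cancer cells often run glycolysis at a high rate in the presence of oxygen, and EGFR signaling is known to raise it in lung cancer lines of this kind.

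Among the members, glycolysis transcripts fell together in adapted cells, and most glycogen enzymes fell as well, with a smaller median change. The pentose phosphate members moved in both directions. Values were taken as log2(FPKM + 1), though the unit is not named, and FPKM stands for fragments scaled to the length of the transcript and the size of the library. A gene was tested where its mean over the 6 samples was at least 1, and it passed where limma's adjusted p was under 0.05. Of the 20 glycolysis genes 19 were tested, of which 18 fell and 1 rose. Of the 6 pentose phosphate genes 3 fell, 1 rose and 2 did not pass, and without parental replicate 2 or parental replicate 3 only 2 passed, both lower in adapted cells. Of the 7 glycogen genes 6 fell and 1 did not pass. Among all 12656 rows tested, 26.2% fell and 30.7% rose. The median log2 fold change was -0.89 in glycolysis, -0.10 in the pentose phosphate pathway and -0.55 in glycogen metabolism, against 0.03 over all rows tested. In 10 of the members the fall was at least 1 on the log2 scale, against 5.18% of all rows. Counting both directions, 29 of the 32 tested members passed, against 56.9% of all rows. All adapted samples lay below all parental ones in 27 members and above them in 2, against 30.6% and 35.7% of all rows. The genes were listed with earlier results of the table known, and no test of the lists was made. Fewer cells with a transcript and less of it per cell cannot be told apart in these bulk samples.

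**Figure D1:**
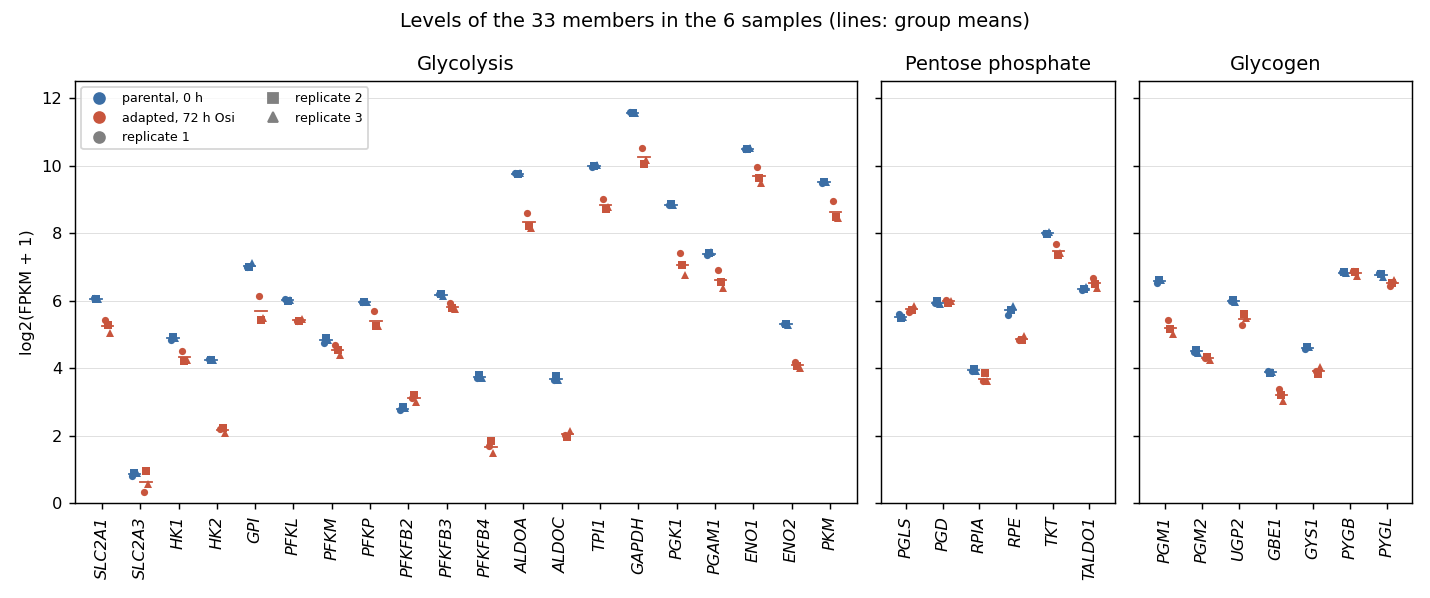
Level of each of the 33 members in the 6 samples, as log2(FPKM + 1), with parental samples in blue, adapted samples in red, a marker shape per replicate number and lines at the group means. The parental points nearly coincide, the adapted points lie below them for most glycolysis and glycogen genes, and adapted replicate 1 (circles) is the highest adapted sample in 14 of the 19 tested glycolysis genes.

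As a check of the samples, all 8 epithelial markers were past the filter, with a summed FPKM of 4059 to 4102 in the parental and 3736 to 4054 in the adapted samples. They did not move together, since KRT7 rose by 1.07, ESRP1, KRT19, KRT18, KRT8 and ELF3 fell by 1.08, 0.75, 0.57, 0.28 and 0.27, and EPCAM and CDH1 did not pass. The part of these changes in the results was not tested. The 6 leukocyte markers summed to at most 1.09 FPKM, with CD3E and MS4A1 at 0 in every sample, and the 5 endothelial markers to at most 3.51. Among the latter, the mean FPKM of CDH5 went from 0.156 in parental to 2.39 in adapted cells. That of PECAM1 went from 1.35 to 0.0634, and both were too low to be tested. The 6 fibroblast markers summed to 3.04 to 3.17 in parental and 8.60 to 9.33 in adapted cells, mostly COL1A1, and their part in the results was not tested. Over all rows, a sample held a linear total of 375342 to 387753, and the depth is unknown. In 147 rows of the table the 3 values of 1 group carry an added constant, and 0 of the 33 members are among them. Replicate numbers are not stated to be separate cultures, so the p-values measure the spread between these samples only.

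Promoter sequence is shown for some of the members that fell by at least 1 or did not pass, where a stretch of at least 150 bases without an annotated exon was at hand. The choice was made after values were seen. The shown members that fell all have a match, while PFKFB4, with a log2 fold change of -2.07, is not shown and has no match in its window. The capitals mark ACGTG or its reverse complement CACGT, a form of the core of the hypoxia response element, to which the HIF factors bind. The form GCGTG was not searched or marked, so a stretch without capitals may still hold it. Where the letters CACGTG, an E-box bound by MYC, occur, ACGTG is met on both strands. All are read 5′ to 3′ on the strand of the gene, from RefSeq windows of GRCh38.p14, and hold no exon of GENCODE release 29. The first is HK2 at chr2:74834920-74835169, followed by ALDOA at chr16:30065510-30065672, TPI1 at chr12:6867855-6868099 and PGK1 at chrX:78103998-78104173, all of which fell, and PGD at chr1:10398814-10399043 and PYGB at chr20:25247835-25248068, which did not pass. All 6 lie on the plus strand.
HK2: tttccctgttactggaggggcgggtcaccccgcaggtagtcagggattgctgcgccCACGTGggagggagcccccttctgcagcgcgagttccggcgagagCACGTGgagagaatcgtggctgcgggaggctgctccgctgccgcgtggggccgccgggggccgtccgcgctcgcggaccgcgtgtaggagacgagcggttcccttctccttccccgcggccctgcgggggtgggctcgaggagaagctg
ALDOA: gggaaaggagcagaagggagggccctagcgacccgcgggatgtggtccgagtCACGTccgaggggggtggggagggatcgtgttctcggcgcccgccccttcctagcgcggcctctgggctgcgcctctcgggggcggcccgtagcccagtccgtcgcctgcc
TPI1: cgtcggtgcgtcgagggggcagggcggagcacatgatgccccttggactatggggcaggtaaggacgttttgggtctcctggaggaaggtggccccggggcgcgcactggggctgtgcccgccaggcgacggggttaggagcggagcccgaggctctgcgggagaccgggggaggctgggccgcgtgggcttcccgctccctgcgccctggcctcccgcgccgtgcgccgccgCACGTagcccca
PGK1: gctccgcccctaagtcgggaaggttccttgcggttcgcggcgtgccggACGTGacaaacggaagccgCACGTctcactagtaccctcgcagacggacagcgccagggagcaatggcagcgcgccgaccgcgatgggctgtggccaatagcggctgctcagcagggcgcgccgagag
PGD: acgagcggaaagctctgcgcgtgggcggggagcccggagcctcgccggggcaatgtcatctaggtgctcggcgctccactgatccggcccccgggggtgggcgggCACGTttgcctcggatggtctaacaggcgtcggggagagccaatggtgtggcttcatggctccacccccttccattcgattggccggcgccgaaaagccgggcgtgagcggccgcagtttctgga
PYGB: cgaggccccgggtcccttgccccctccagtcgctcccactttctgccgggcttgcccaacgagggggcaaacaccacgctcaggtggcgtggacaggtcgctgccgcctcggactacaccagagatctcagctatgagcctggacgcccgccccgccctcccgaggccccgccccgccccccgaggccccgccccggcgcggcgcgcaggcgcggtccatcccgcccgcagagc

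The HK2 stretch holds 4 matches, as 2 copies of the E-box, the PGK1 stretch holds 2, and the ALDOA, TPI1 and PGD stretches hold 1 each, so a match occurs in a gene that fell and in one that did not. Windows of 300 bases, 250 before and 50 after a transcript start, were found for 31 of the 33 members, but not for SLC2A3 or PFKFB2. ACGTG on either strand was in 15 of 38 windows of glycolysis genes (39.5%), 1 of 6 of pentose phosphate genes and 4 of 10 of glycogen genes, against 21.4% of all 35116 windows. By gene, 11 of 18 glycolysis genes had a window with a match, against 24.9% of all 27305 genes with a window. These 18 are the glycolysis members that fell, so the count holds no contrast within the pathway. Of all members that fell, 15 of 27 had a match. Of those with a window that did not fall, PGD had a match and PGLS, TALDO1 and PYGB did not. SLC2A1, HK1, PFKL, PFKFB4, PGAM1, ENO1 and PKM, which all fell, had none. The comparison is with all annotated windows, not with the rows tested here, and the difference was not tested. CACGTG was in 5 of the 38 glycolysis windows, against 7.26% of all windows. Windows of 1 gene can overlap, and in the counts of windows genes with several starts count more than once. By gene, a match in any window counts, so genes with more windows had more chances of a match. The 18 glycolysis genes had 38 windows, while all 27305 genes had 35116. A match describes the letters in the window only.

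The first steps of glycolysis bring glucose into the cell and trap it as glucose 6-phosphate. SLC2A1, the transporter GLUT1, was 6.09, 6.04 and 6.04 in parental and 5.43, 5.27 and 5.03 in adapted cells. The groups did not overlap, and the log2 fold change was -0.81 (limma, standard error 0.10, adjusted p = 4.55e-04). SLC2A3, the transporter GLUT3, was 0.82, 0.91 and 0.90 against 0.35, 0.97 and 0.57, overlapped between groups and was too low to be tested. HK2, the hexokinase that is induced in many tumors, had a log2 fold change close to that of PFKFB4, and these were the lowest among the members. It lies at chr2:74833981-74893359 (GRCh38, GENCODE release 29, plus strand), and its values were 4.28, 4.24 and 4.23 in parental and 2.20, 2.24 and 2.07 in adapted cells. The log2 fold change was -2.08 (standard error 0.07, adjusted p = 2.08e-06), and the mean FPKM went from 18.1 to 3.51. HK1, the widely expressed hexokinase, fell by less, from 4.89 ± 0.04 to 4.32 ± 0.16 (SD, n = 3 each). HK2 made up 38.7% ± 1.08 of the summed FPKM of HK1 and HK2 in parental and 15.6% ± 1.75 in adapted cells (exact two-sided permutation test, p = 0.1, the minimum for 3 against 3 samples, and 0.138 adjusted over 11 shares). HKDC1, a hexokinase relative outside the set, had a mean FPKM of 20.9 in parental and 21.4 in adapted cells, and with it in the sum the share of HK2 was 26.7% ± 0.68 and 8.07% ± 1.14. The shares given below are likewise within the members only.

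The middle steps turn glucose 6-phosphate into triose phosphates. GPI, the isomerase that makes fructose 6-phosphate, was 7.01, 6.99 and 7.10 in parental and 6.14, 5.42 and 5.50 in adapted cells. Its adapted values had the widest spread of all members (SD 0.39), and the log2 fold change of -1.35 had a standard error of 0.18 (limma, adjusted p = 6.14e-04). The 3 subunit genes of phosphofructokinase, the committed step, fell by 0.60 (PFKL), 0.55 (PFKP) and 0.29 (PFKM) on the log2 scale. PFKM was 4.74, 4.90 and 4.83 against 4.69, 4.53 and 4.40, so the groups lay close together, and its adjusted p of 0.0254 (limma) rose to 0.0971 without parental replicate 2, 0.075 without parental replicate 3, 0.065 without adapted replicate 2 and 0.0631 without adapted replicate 3. PFKM took 17.9% ± 0.96 of the phosphofructokinase FPKM in parental and 21.0% ± 1.02 in adapted cells, while the shares of PFKL and PFKP overlapped between groups.

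ALDOA, the main aldolase, was 9.77, 9.74 and 9.77 in parental and 8.60, 8.21 and 8.14 in adapted cells. All adapted samples were below all parental ones, with a log2 fold change of -1.44 (limma, standard error 0.12, adjusted p = 9.18e-05). ALDOC, the isoform best known from brain, was 3.64, 3.76 and 3.65 against 2.02, 1.97 and 2.15, a log2 fold change of -1.64 (standard error 0.08, adjusted p = 7.27e-06). ALDOC held 1.35% ± 0.08 of the aldolase FPKM in parental and 0.988% ± 0.21 in adapted cells, so ALDOA supplied nearly all of it in both. TPI1, which interconverts the triose phosphates, fell from 9.99 ± 0.03 to 8.83 ± 0.16 (SD, n = 3 each).

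PFKFB enzymes set the level of fructose 2,6-bisphosphate, the strongest activator of phosphofructokinase, and their genes did not move as a block. PFKFB4 was 3.71, 3.80 and 3.70 in parental and 1.69, 1.84 and 1.48 in adapted cells, a log2 fold change of -2.07 (limma, standard error 0.10, adjusted p = 8.61e-06). PFKFB3, the isoform with the highest kinase activity relative to its bisphosphatase activity, was the most abundant of the 3 and fell by 0.35 (adjusted p = 0.00283). PFKFB2 was the 1 glycolysis member that rose, from 2.77, 2.85 and 2.81 to 3.11, 3.21 and 3.01, a log2 fold change of 0.30 (adjusted p = 0.0116, or 0.0509 without parental replicate 1). PFKFB4 took 13.8% ± 0.48 of the PFKFB FPKM in parental and 3.34% ± 0.54 in adapted cells, PFKFB2 took 6.70% ± 0.26 and 11.7% ± 0.87, and PFKFB3 took 79.5% ± 0.70 and 85.0% ± 1.37 (SD, n = 3 each). None of these 3 shares overlapped between groups (exact permutation test, p = 0.1 each).

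The payoff phase, from GAPDH to pyruvate kinase, yields the ATP and NADH of glycolysis, and all 6 of its members fell. GAPDH, the most abundant member, was 11.58, 11.56 and 11.55 in parental and 10.52, 10.04 and 10.16 in adapted cells. Its log2 fold change was -1.32 (limma, standard error 0.13, adjusted p = 1.80e-04), from a mean FPKM of 3025 to 1221. GAPDH is often used as a reference gene in qRT-PCR, and here all adapted samples lay below all parental ones. The study used ACTB as the control of its own qRT-PCR. PGK1, the first ATP-forming enzyme, was 8.84, 8.86 and 8.84 against 7.40, 7.04 and 6.75, a log2 fold change of -1.78 (standard error 0.15, adjusted p = 8.35e-05). PGAM1, a mutase, fell by 0.79 and ENO1, the main enolase, fell by 0.79. ENO2, the neuronal enolase, was 5.32, 5.31 and 5.28 in parental and 4.19, 4.08 and 4.01 in adapted cells, a log2 fold change of -1.21 (standard error 0.06, adjusted p = 1.16e-05), and its share of the enolase FPKM went from 2.60% ± 0.06 to 1.91% ± 0.19. PKM, the pyruvate kinase gene, was 9.50, 9.53 and 9.51 against 8.96, 8.48 and 8.44, a log2 fold change of -0.89 (standard error 0.14, adjusted p = 0.00135). The 2 spliced forms of PKM share 1 row and could not be told apart.

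Summed over the 20 genes, glycolysis held 2.15% of the linear values in each parental sample and 1.16%, 0.912% and 0.896% in the adapted samples. The means were 2.15% ± 0.00238 and 0.989% ± 0.148 (SD, n = 3 each, two-sided exact permutation test, p = 0.1), so that the parental share was 2.17 times the adapted share. Without GAPDH the shares were 1.36% ± 0.0112 and 0.669% ± 0.0990, a ratio of 2.03. The parental samples were closely alike (median SD 0.03 over the tested glycolysis genes), and the adapted samples less so (median SD 0.18, against 0.13 over all rows tested). Adapted replicate 1 was the highest adapted sample in 14 of 19 glycolysis genes and the lowest in 0, while it was the highest in 39.6% of all rows and in 56.0% of the rows that fell. Without it the median log2 fold change of the pathway was -1.05.

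**Figure D2:**
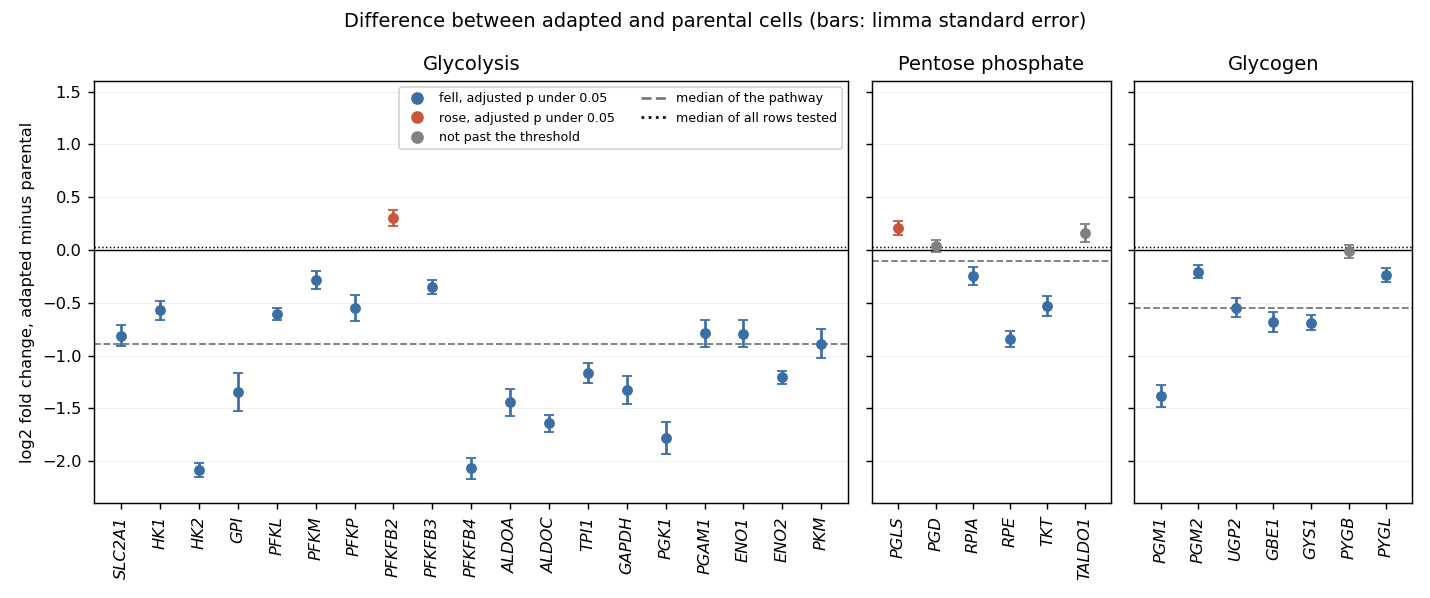
Log2 fold change of each tested member, adapted minus parental (y axis), by pathway, with the standard error from limma, the pathway median (dashed) and the median of all rows tested (dotted). Of the 19 glycolysis genes, 18 lie below zero (blue) and PFKFB2 lies above it (red). In the pentose phosphate panel PGLS is red and PGD and TALDO1 are grey (not past the threshold), and in the glycogen panel PYGB is grey.

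In the pentose phosphate pathway neither of the oxidative members fell. PGD, which forms NADPH and ribulose 5-phosphate, was 5.94, 5.98 and 5.91 in parental and 6.01, 5.92 and 6.01 in adapted cells, with overlapping groups (log2 fold change 0.04, standard error 0.06, limma, adjusted p = 0.582). PGLS, the lactonase before it, was 5.60, 5.48 and 5.51 against 5.68, 5.71 and 5.84 and rose by 0.21 (adjusted p = 0.0312). That call was lost without parental replicate 2 (adjusted p = 0.121), parental replicate 3 (0.1), adapted replicate 2 (0.0509) or adapted replicate 3 (0.0694).

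In the non-oxidative branch RPE, the epimerase, was 5.59, 5.72 and 5.83 in parental and 4.83, 4.83 and 4.94 in adapted cells, a log2 fold change of -0.85 (limma, standard error 0.08, adjusted p = 1.15e-04). TKT, the transketolase, was 7.98 to 8.04 in the parental and 7.35 to 7.67 in the adapted samples, a log2 fold change of -0.53 (adjusted p = 0.0023). TALDO1, the transaldolase, overlapped between groups, with 6.31, 6.35 and 6.39 against 6.68, 6.48 and 6.38 (log2 fold change 0.16, adjusted p = 0.14). Its log2 fold change was 0.23 (adjusted p = 0.0466) without adapted replicate 3 and 0.08 (0.235) without adapted replicate 1. RPIA, which makes ribose 5-phosphate, went from 3.93, 3.99 and 3.91 to 3.63, 3.86 and 3.61. Its log2 fold change of -0.25 passed narrowly (adjusted p = 0.0352), and the call was lost without any 1 of the parental samples (adjusted p = 0.0774 to 0.12), without adapted replicate 1 (0.0527) and without adapted replicate 3 (0.0937). The 6 genes held 0.133% ± 0.00219 of the linear values in the parental and 0.111% ± 0.00572 in the adapted samples (SD, n = 3 each).

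Of the 7 glycogen members, PGM1, PGM2, UGP2, GYS1 and GBE1 fell. PGM1, the main phosphoglucomutase, which links glucose 6-phosphate and glucose 1-phosphate, was 6.53, 6.60 and 6.60 in parental and 5.43, 5.15 and 5.02 in adapted cells. It had the largest fall of the 7, with a log2 fold change of -1.38 (limma, standard error 0.10, adjusted p = 5.47e-05). PGM2, a second phosphoglucomutase that acts mainly on pentose phosphates, fell by 0.21 (adjusted p = 0.0206), and lost the call without any 1 of the parental samples (adjusted p = 0.0514 to 0.0925). UGP2, which forms UDP-glucose, was 5.97 to 6.03 in the parental and 5.27 to 5.61 in the adapted samples, a log2 fold change of -0.55 (adjusted p = 0.00175). GYS1, the glycogen synthase of tissues other than liver, was 4.56, 4.63 and 4.64 against 3.92, 3.82 and 4.02, a log2 fold change of -0.69 (standard error 0.07, adjusted p = 1.85e-04). GBE1, the branching enzyme, was 3.91, 3.87 and 3.89 against 3.38, 3.20 and 3.04, a log2 fold change of -0.68 (adjusted p = 6.84e-04). None of these groups overlapped. Outside the set, the glycogen gene GYG1 did not pass (log2 fold change -0.04, limma, adjusted p = 0.585) and GYG2 rose by 0.45 (adjusted p = 0.0218).

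Of the phosphorylases, which release glucose 1-phosphate, PYGL fell and PYGB did not pass. PYGB, the brain form, was 6.84, 6.85 and 6.81 in parental and 6.87, 6.85 and 6.74 in adapted cells, with a log2 fold change of -0.01 (limma, standard error 0.06, adjusted p = 0.859). PYGL, the liver form, was 6.81, 6.78 and 6.69 against 6.44, 6.52 and 6.61 and fell by 0.24 (adjusted p = 0.0199, or 0.082 without parental replicate 1 and 0.0781 without parental replicate 2). Both were at similar levels, and PYGL took 48.7% ± 0.81 of their summed FPKM in the parental and 44.8% ± 2.67 in the adapted samples (exact permutation test, p = 0.1). The 7 genes held 0.114% ± 0.00209 of the linear values in parental and 0.0849% ± 0.00203 in adapted cells.

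Other genes of the 3 pathways, from a hand-written list of 59, moved in both directions. Of the 37 tested, 14 rose and 5 fell, while 30.7% of all 12656 rows tested rose and 26.2% fell. Without adapted replicate 1, 15 rose and 10 fell, and the number of all rows that passed went from 7202 to 8370. Neither these counts nor those by pathway below were tested against all rows. Among the 14 tested genes of the further glycolysis list the median log2 fold change was 0.04, with 5 rising and 2 falling. That list is broader than the pathway. It also holds FBP1, PCK2 and G6PC3 of gluconeogenesis, none of which passed, as well as TIGAR and SLC2A13. BPGM, which diverts 1,3-bisphosphoglycerate into 2,3-bisphosphoglycerate, rose most, from 3.63, 3.44 and 3.54 in parental to 5.49, 4.98 and 4.82 in adapted cells (log2 fold change 1.56, standard error 0.17, limma, adjusted p = 2.24e-04). SLC2A8, an intracellular glucose transporter, rose by 0.84, and TIGAR, a fructose 2,6-bisphosphatase induced by p53, rose by 0.63. SLC2A13, a proton and myo-inositol cotransporter, fell by 0.69 and SLC2A6, a lysosomal transporter, fell by 0.54. HKDC1 was 4.45, 4.46 and 4.46 against 4.79, 4.34 and 4.28 and did not pass (adjusted p = 0.935).

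Of 6 further pentose phosphate genes 2 rose and 4 did not pass. DERA, a deoxyribose phosphate aldolase, rose by 0.43, and H6PD, the dehydrogenase of the endoplasmic reticulum, rose by 0.26. Of 17 further glycogen genes 7 rose and 3 fell, with a median of 0.11. PGM2L1, which makes glucose 1,6-bisphosphate, rose by 0.87, PHKG2, a catalytic subunit of phosphorylase kinase, rose by 0.62, and GSK3B, a kinase that inhibits glycogen synthase, rose by 0.56. PPP1R3C and PPP1R3B, which bring protein phosphatase 1 to glycogen, fell by 0.74 and 0.65 (PPP1R3C by 1.18 with a pseudocount of 0.1), and PHKA1, a regulatory subunit of phosphorylase kinase, fell by 0.53. The kinase subunits therefore moved in both directions, with PHKA2 and PHKB rising by 0.43 and 0.32.

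Some rows may hold reads of other loci. GENCODE release 29 names 103 pseudogenes after 12 of the members, 62 of them after GAPDH and 13 after PGAM1, and how reads shared with them were counted is not stated. Exons of 18 members overlap an exon of another annotated gene on either strand, such as TPI1 with SPSB2, PGM1 with ITGB3BP and RPE with KANSL1L. The strand setting of the counting is not stated, so reads of such pairs cannot be told apart.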

How the data were processed

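RNA sequencing of 3 parental (0 h) and 3 adapted (72 h of Osi) samples was analyzed. The authors deposited 1 table of 27216 rows on a log2 scale without naming the unit. It was taken as log2(FPKM + 1). The linear values, less the added 1, had at most 6 decimals in 27069 rows, which bears on the added 1 but cannot tell FPKM from another unit. The isoform shares rest on this reading. The submitters' processing notes name STAR, Bowtie2 2.1.0 and edgeR with build hg38, in no stated role, and the paper's methods name DESeq2, which needs counts. The annotation and depth are not given in the sources used here. The columns, named DMSO and OSI, carry the replicate numbers of the sample titles.

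Rows with a mean of at least 1 (12656) were fitted without pairing in R 4.3.3, by lmFit and trended eBayes of limma 3.58.1, with Benjamini-Hochberg adjustment over all rows and a threshold of 0.05, after a test on simulated data. On the log2(FPKM + 1) scale the fold changes of low genes come out too small. Isoform and summed shares used linear values in Python 3.11.15 with scipy 1.17.1. All members were described, and of the other pathway genes up to 3 that rose and 3 that fell most without overlap between groups. HKDC1, PHKA2, PHKB, GYG1 and GYG2, as well as the promoter windows shown, were picked after values were seen. Of the list of other genes, 1 is not reported here. The members and lists were chosen with earlier results of these data known. The alternatives were a pseudocount of 0.1, no or a stricter filter (mean of at least 3), 4 scalings, other eBayes settings, a block for the replicate number, omission of each sample in turn, and subtracting the constants of 147 rows or leaving these rows out.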

Additional observations from a re-analysis of the deposited data

How the results depend on the processing

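Under 18 alternatives (17 for PFKFB2, PFKFB4 and ALDOC, which the stricter filter left out), 24 of the 32 tested members kept their direction and their side of the threshold, among them 23 of the 27 that fell and all 10 that fell by at least 1. The others were PFKM, PFKFB2, PGLS, RPIA, TALDO1, PGM2, PYGB and PYGL, all with a log2 fold change of at most 0.30 in size. The log2 fold change of PYGB was 0.034 once each sample was scaled by its sum over all but the mitochondrially encoded genes, and -0.041 to 0.027 over the 6 fits that each left out 1 sample. That rescaling also took RPIA (adjusted p = 0.0715) and PYGL (0.0637) over the threshold and brought TALDO1 under it (0.0474), and RPIA lost its call without the filter (0.0528) or at an equal sum per sample (0.0512). With the stricter filter 4532 of 7693 rows passed, in place of 7202 of 12656, and 12 other pathway genes in place of 19, since fewer were tested. Over the fits that left out 1 sample, 2 to 3 pentose phosphate members passed in place of 4, the glycolysis median was -1.05 to -0.80, and the glycogen median was -0.63 to -0.46. The share of SLC2A3 then changed by -0.19 to 0.73 and that of PFKP by -2.91 to 0.28 percentage points. With HKDC1 in the hexokinase sum, an alternative chosen after seeing the data, the share of HK2 changed by -18.6 in place of -23.0 percentage points. Subtracting the constants changed no member's call. Same-numbered samples did not deviate together (correlations of -0.05 to -0.02 across rows). This cannot show whether they shared a culture, a day or a batch. With the replicate block 6761 rows passed, and PGLS (adjusted p = 0.0665) and PYGL (0.058) did not. Depth is unknown, so counting error could not be separated from the spread between samples.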
